A study of Taeniopygia guttata with 10 samples.

Results

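The transcriptomes of 2 zebra finch cell lines, G266 and ZFTMA, were compared in 4 RNA-seq libraries, out of 10 libraries of all assays in the series. G266 is a diploid male line and ZFTMA a tetraploid female line, and both were established from spontaneous tumors outside the nervous system. Each line was cultured with AZA (5-aza-2'-deoxycytidine, 1 µM over 72 h, renewed every 24 h) or with DMSO, the solvent alone, and each line and treatment gave 1 library. The groups were thus G266 with AZA and with DMSO, against ZFTMA with AZA and with DMSO. Each line is a single culture line from 1 tumor, so that line, sex, ploidy and tumor of origin cannot be told apart. The libraries were made from RNA depleted of ribosomal RNA, and the deposited counts per gene summed to between 22306354 and 35075936 per library, the highest total being that of ZFTMA with DMSO. The 4 libraries covered 18618 gene identifiers, of which 13434 had at least 10 counts in at least 2 libraries and were tested.

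AZA is a cytidine analog that is built into DNA and traps the DNA methyltransferases there, so that methylation is lost as cells divide. Cell lines of different tumors commonly keep part of the expression program of the cell they arose from, and matrix, adhesion and patterning genes are among those that tell such lines apart. In birds the male carries a pair of Z chromosomes and the female a single Z beside a W. Dosage compensation of the Z is incomplete, and many Z-linked genes are more strongly expressed in males.

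The expression profiles of G266 and ZFTMA lay closer to each other than the AZA and DMSO profiles of either line. Counts were divided by the depth of each library (normalized counts), and ratios were taken for the 10922 genes averaging 50 or more normalized counts, after adding 0.5 to each value. The SD over genes of the log2 ratio of G266 over ZFTMA was 0.24 with AZA and 0.30 with DMSO. The same SD for AZA over DMSO was 0.94 in G266 and 0.91 in ZFTMA. At least 2-fold apart between the lines were 49 genes with AZA (0.449% of genes) and 148 with DMSO (1.36%). Between AZA and DMSO this number was 1126 genes in G266 and 1127 in ZFTMA. Of the sum of squared log2 deviations over the 4 libraries, the treatment accounted for 92.0%, the line for 5.59% and the part of the line difference that changed with treatment for 2.42%. The Spearman correlation over these genes was 0.994 with AZA and 0.995 with DMSO between the lines, against 0.956 between the treatments of G266 and 0.960 between those of ZFTMA. Genes under 50 normalized counts in 1 treatment entered through the other (512 low with DMSO, 73 low with AZA), which widens the treatment ratios by selection. With 50 or more within each treatment, the SD for AZA over DMSO was smaller. In the 1892 genes averaging under 200 it was 0.63 in G266 and 0.62 in ZFTMA, against 0.31 and 0.35 between the lines. In the 1065 genes averaging 5000 or more it was 0.40 and 0.38, against 0.18 and 0.17. These values describe the libraries. With 1 library per line and treatment, no test exists for them within a treatment.

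Genes detected in a single line were almost absent. No gene (0) had at least 10 counts in both libraries of G266 and 0 in both of ZFTMA, and the same held for the reverse. Within a treatment, the highest count in G266 of a gene at 0 in ZFTMA was 9 with AZA and 5 with DMSO. The highest count in ZFTMA of a gene at 0 in G266 was 10 with AZA and 12 with DMSO, and the ZFTMA library with DMSO was also the deepest of the 4. At least 10 counts in ZFTMA and 0 in G266 were found for 1 gene with AZA and 7 with DMSO. Of these 7, 2 had at least 10 counts in G266 with AZA. The reverse held for 0 genes in either treatment. The male and female labels were read against the Z chromosome. The 121 Z-linked genes with a position and an average of 50 or more normalized counts had a median log2 G266 over ZFTMA of 0.00 with AZA and 0.05 with DMSO, against -0.02 and 0.01 for 1745 autosomal genes. Relative to autosomes, Z-linked genes were thus 0.02 higher in G266 with AZA and 0.04 higher with DMSO. Of the Z-linked genes, 60 with AZA and 70 with DMSO lay above 0. In the fit described below, 192 Z-linked genes were tested, and 10 were called higher in G266 and 10 higher in ZFTMA. Among the genes named below, PRDM6, VCAN and DDX4 lie on the Z and were called higher in G266. The part of Z dosage in these calls was not tested. Positions were known only for genes in the study's supplementary gene tables, which list genes related to AZA or methylation. Among these genes, no general excess of Z-linked expression was found in the line labelled male, and other Z-linked genes were not read. The number of Z chromosomes in the cultures was not tested. No gene was thus at 10 or more counts in both libraries of 1 line and at 0 in both of the other. The Z-linked genes read here showed no general male excess. These readings gave no independent check that the libraries come from different lines, and every line difference below rests on the labels.

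**Figure D1:**
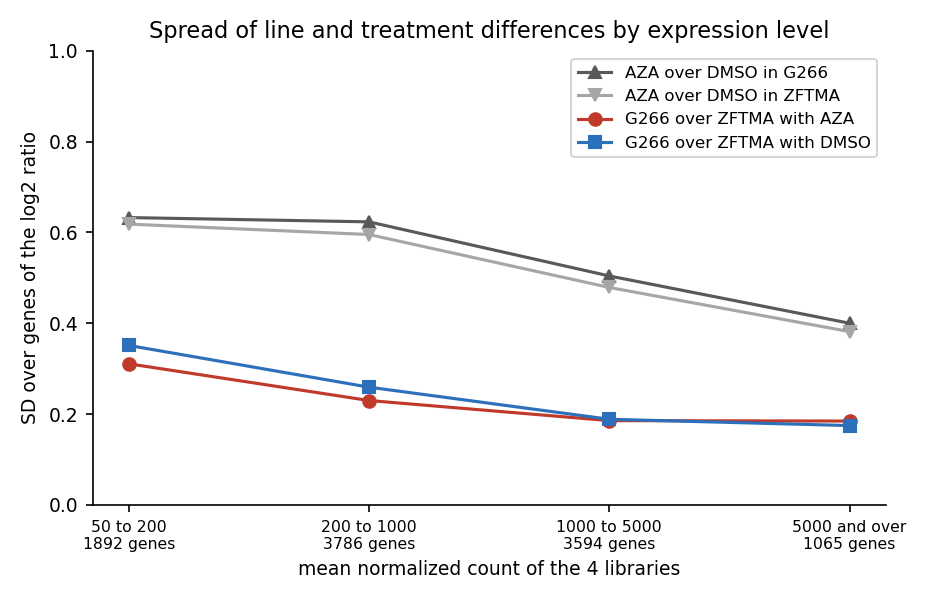
SD over genes of the log2 ratio of normalized counts (vertical axis) for genes with 50 or more normalized counts within each treatment, grouped by their mean normalized count over the 4 libraries (horizontal axis, with the number of genes). Triangles are AZA over DMSO in each line, circles are G266 over ZFTMA with AZA and squares G266 over ZFTMA with DMSO; from 1000 normalized counts up, the circles and squares lie together at 0.17 to 0.19, and all triangles lie above them.

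The spread of the line difference was nearly the same with AZA and with DMSO in abundant genes. The SD with AZA was 0.81 times that with DMSO over all 10922 genes, but these had to average 50 normalized counts over all 4 libraries, so that a gene low in either treatment entered through its level in the other. The 512 genes under 50 normalized counts with DMSO had an SD of 0.40 with AZA and 0.79 with DMSO. The 73 genes under 50 with AZA had an SD of 0.49 with AZA and 0.42 with DMSO. The ratio was thus wider in the treatment where the counts were low, as the selection fixes, and nothing is read from it. Of the 10337 genes with 50 or more normalized counts within each treatment, a choice made after the data were seen, the SD was 0.31 with AZA and 0.35 with DMSO in the 1892 genes averaging under 200. It was 0.23 with AZA and 0.26 with DMSO in the 3786 genes averaging from 200 to 1000. In the 3594 genes from 1000 to 5000 it was 0.19 with AZA and 0.19 with DMSO, and in the 1065 genes above that 0.18 with AZA and 0.17 with DMSO. Where only the 6168 genes averaging 500 or more normalized counts within each treatment were kept, the SD was 0.19 with AZA and 0.19 with DMSO, with 10 and 9 genes at least 2-fold apart. Once the mean counting variance was subtracted, the SD over all 10922 genes was 0.21 with AZA and 0.23 with DMSO. Over the 10337 genes it was 0.20 with AZA and 0.23 with DMSO. By level it was 0.24 with AZA and 0.29 with DMSO under 200, and 0.21 and 0.24 from 200 to 1000. From 1000 to 5000 it was 0.18 and 0.18, and above that 0.18 and 0.17. The order turned at a mean of at least 10 normalized counts, at 0.23 with AZA and 0.20 with DMSO. It also turned with 5 added to each count, at 0.21 with AZA and 0.18 with DMSO. The subtracted variance was not reduced where 5 were added, so that setting removed too much. At a mean of at least 10 it was large in genes with counts near 0, where it is only approximate. Nothing is read from these turns.

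Genes with a large difference in either treatment had a smaller difference in the other. Of the 148 genes at least 2-fold apart with DMSO, 140 had a smaller absolute log2 ratio with AZA, where their median was 0.45, against 1.28 with DMSO. Of the 49 genes at least 2-fold apart with AZA, 37 had a smaller one with DMSO, where their median was 0.97, against 1.18 with AZA. The drop toward the other treatment thus ran both ways. Picking genes by their ratio in 1 treatment builds in such a drop, and nothing is read from it. The sign was kept in 47 of the 49 genes chosen with AZA and in 120 of the 148 chosen with DMSO, and 20 genes were at least 2-fold apart in the same direction in both. With 50 or more normalized counts within each treatment, 32 genes were at least 2-fold apart with AZA and 51 with DMSO. Across the 10922 genes the line difference with AZA correlated with that with DMSO with a Pearson correlation of 0.41 and a Spearman correlation of 0.36. Over the genes with at least 500 normalized counts within each treatment these were 0.50 and 0.43. Genes are not independent replicates, and no p is given.

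Of the genes with a symbol and at least 50 normalized counts in a library of each treatment, the line difference shrank most with AZA in LTBP2, FSCN1, PPAP2B, HMHA1 and ZNF385D. All 5 were higher in G266 with DMSO and near equal, or less far apart, with AZA. FSCN1, which encodes the actin-bundling protein fascin, had 294 normalized counts in G266 and 193 in ZFTMA with AZA, and 344 in G266 and 104 in ZFTMA with DMSO. PPAP2B, a lipid phosphate phosphatase, had a log2 G266 over ZFTMA of 0.03 with AZA and 1.05 with DMSO. For HMHA1 the values were 353 in G266 and 315 in ZFTMA with AZA, and 122 and 54.0 with DMSO. The ZFTMA library with DMSO was the lowest of the 4 in all 5 genes, and the part of this library in the pattern was not tested. ZNF385D, a zinc finger protein, had 175 in G266 and 156 in ZFTMA with AZA, and 65.8 and 30.0 with DMSO.

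The difference grew most with AZA in KLHL26, SERPIND1, ENTPD8, BMF and STARD9, and all 5 were lower in G266 than in ZFTMA with AZA. KLHL26 had 23.1 normalized counts in G266 and 50.7 in ZFTMA with AZA, and 78.7 and 73.5 with DMSO. SERPIND1, the thrombin inhibitor heparin cofactor II, had 643 in G266 and 1034 in ZFTMA with AZA, and 438 and 443 with DMSO. BMF, a pro-apoptotic BH3-only protein, had 26.3 in G266 and 57.2 in ZFTMA with AZA, and 95.2 and 131 with DMSO. The log2 ratio with AZA and with DMSO was -0.91 and -0.26 for ENTPD8, a nucleotidase of the cell surface, and -0.80 and -0.21 for STARD9, a kinesin. These 10 genes were picked for their change, so the values only describe them. An example of a gene barely expressed with DMSO, chosen after its values were seen, was EPAS1, which encodes a hypoxia-inducible transcription factor. It had 140 normalized counts in G266 and 142 in ZFTMA with AZA, and 8.23 and 27.8 with DMSO.

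In the fit over all 4 libraries with the treatment as a block, 515 genes were significantly higher in G266 (3.83% of 13434) and 570 higher in ZFTMA (4.24%), together 8.08% (edgeR quasi-likelihood test, Benjamini-Hochberg FDR of 0.1). The differences were small. The median absolute log2 fold change of the 1085 genes was 0.38, a fold of 1.30, and 815 of them (75.1%) were under 1.5-fold. At least 2-fold in the fit were 88 genes and at least 4-fold 4 genes. Within the treatments, 1070 of the 1085 genes had the same sign with AZA and with DMSO, a repeat that the test itself asks for, since its spread is the departure from it. That spread corresponded to a coefficient of variation of 6.38%. It was measured between 2 treatments of each line and not between separate cultures of a line, so the p-values do not cover how far cultures of 1 line differ. Calls were more common among abundant genes. They took 1.91% of genes with a mean under 50 normalized counts, 6.85% of those from 50 to 500, 10.8% from 500 to 5000 and 13.7% above that. DESeq2 with the same model called 81 genes higher in G266 and 126 higher in ZFTMA, and without treatment in the model edgeR called 0 in either direction, with 40 and 48 genes at an unadjusted p under 0.05.

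**Figure D2:**
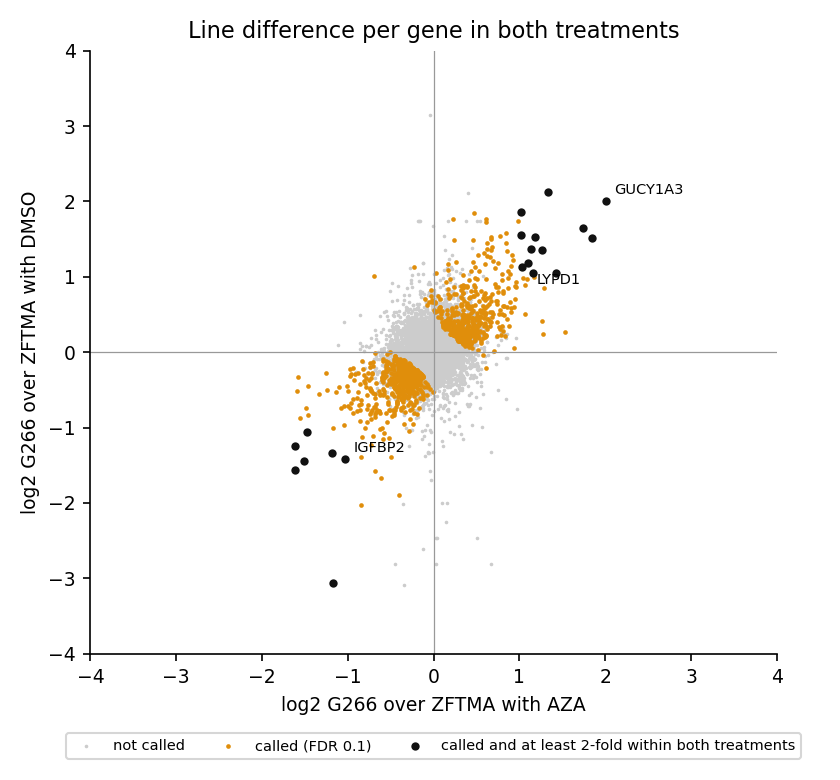
Log2 ratio of normalized counts of G266 over ZFTMA with AZA (horizontal axis) and with DMSO (vertical axis), 1 point per tested gene averaging 50 or more normalized counts. Orange points are called at an FDR of 0.1, and black points are called and at least 2-fold apart in the same direction within both treatments; most called genes lie within 1 of 0 on both axes, and GUCY1A3 lies at 2.01 on both.

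Only 39 genes were called and at least 2-fold apart in the same direction within both treatments (0.29% of genes tested). Of these, 24 were higher in G266 (0.179%) and 15 higher in ZFTMA (0.112%). A symbol was known for 9 of them, and 15 had at least 50 normalized counts in both libraries of the higher line. The single gene with a symbol that met both conditions was GUCY1A3, which encodes the alpha subunit of soluble guanylate cyclase, the nitric oxide receptor that makes cyclic GMP. The gene lies at chr4:28572990-28585046 (taeGut3.2.4). It had 1825 and 978 normalized counts in G266 with AZA and DMSO, against 453 and 242 in ZFTMA. Both G266 libraries were thus above both ZFTMA libraries, by 4.02-fold with AZA and 4.03-fold with DMSO (log2 fold change of 2.01, SE 0.10, adjusted p = 1.77e-16 by edgeR). AZA-treated cells were higher than DMSO-treated cells in both lines, and the ratio between the lines stayed the same.

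The other 8 genes with a symbol had fewer counts. NXPH1, which encodes a secreted ligand of neurexins, had 27.3 and 103 normalized counts in G266 with AZA and DMSO, against 6.47 and 12.8 in ZFTMA, with a log2 fold change of 2.77 (SE 0.35, adjusted p = 1.29e-06 by edgeR). UNC5C, a netrin receptor, had 70.4 and 22.3 in G266, against 22.7 and 4.50 in ZFTMA. DLL1, a ligand of Notch receptors, had 22.1 and 11.8 in G266, against 5.39 in ZFTMA with AZA and 2 raw counts in ZFTMA with DMSO. All 3 genes were higher in G266 within each treatment, although UNC5C with DMSO in G266 was no higher than with AZA in ZFTMA. DESeq2 gave no adjusted p for any of the 3.

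The Z-linked PRDM6, a transcriptional regulator known from smooth muscle, had 32.6 and 11.8 normalized counts in G266 with AZA and DMSO, against 11.9 and 3.75 in ZFTMA. LYPD1, a membrane-anchored protein that binds nicotinic acetylcholine receptors, had 16.8 and 147 in G266, against 7.55 and 64.5 in ZFTMA. LYPD1 was lower with AZA than with DMSO in both lines, unlike PRDM6, which was higher. LYPD1 in G266 with AZA was below LYPD1 in ZFTMA with DMSO. PRDM6 in G266 with DMSO was no higher than in ZFTMA with AZA. The value of LYPD1 in ZFTMA with AZA rested on 7 raw counts, and that of PRDM6 in ZFTMA with DMSO on 5. DESeq2 gave no adjusted p for either gene.

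BFSP1 and IGFBP2 were the genes with a symbol on the ZFTMA side. IGFBP2, which binds insulin-like growth factors, had 123 and 12.9 normalized counts in G266 with AZA and DMSO, against 252 and 35.3 in ZFTMA (log2 fold change of -1.11, SE 0.22, adjusted p = 0.000918 by edgeR). BFSP1, a filament protein known from the eye lens, had 46.3 and 10.6 in G266, against 101 and 25.5 in ZFTMA. In both genes ZFTMA was higher within each treatment by between 2.05-fold and 2.66-fold. AZA-treated G266 was above DMSO-treated ZFTMA in both, so the lines separated only within a treatment. DESeq2 did not call IGFBP2 (adjusted p = 0.156 by its Wald test) and gave no adjusted p for BFSP1.

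Identifiers without a known symbol held some of the most abundant separating genes. ENSTGUG00000006574 had 5973 and 653 normalized counts in G266 with AZA and DMSO, against 2367 and 149 in ZFTMA. ENSTGUG00000008354 had 5212 and 1115 in G266, against 2570 and 306 in ZFTMA. ENSTGUG00000006576 ran the other way, with 1125 and 222 in G266, against 3448 and 657 in ZFTMA. ENSTGUG00000003136 was also lower in G266, with 372 and 682, against 1062 and 1862 in ZFTMA. These 4 were chosen after their values were seen.

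**Figure D3:**
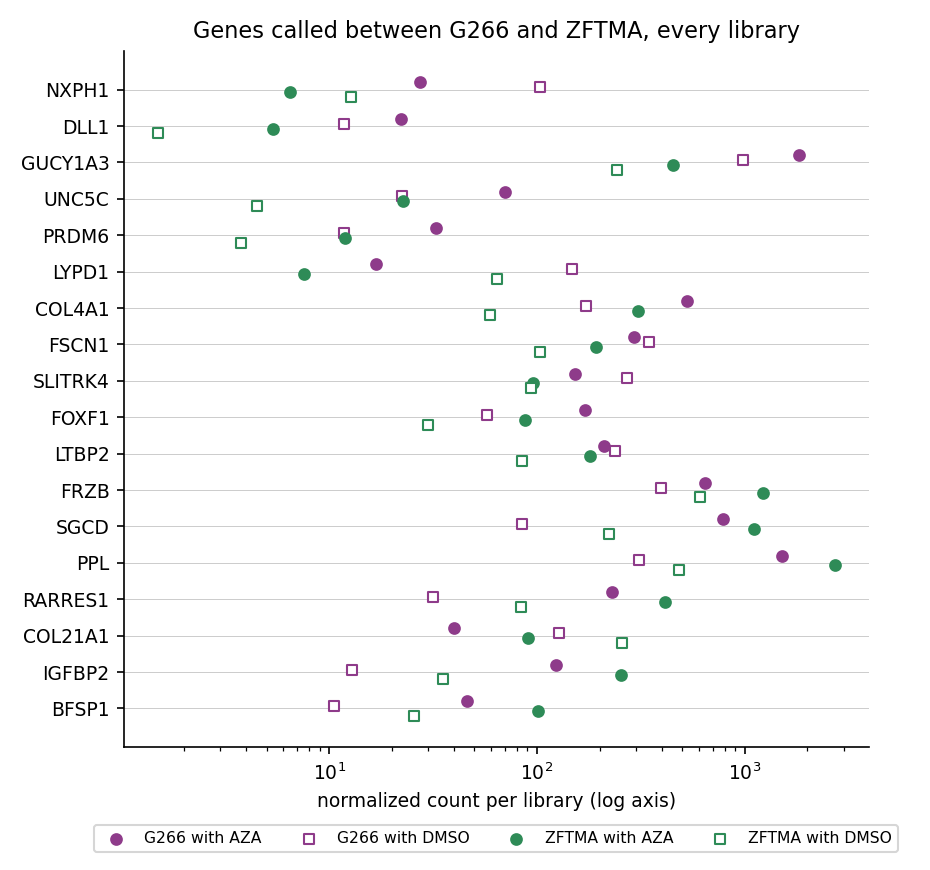
Normalized counts (horizontal log axis) in every library, of 18 called genes with a symbol chosen for the plot after their values were seen. Purple marks are G266 and green marks ZFTMA, with filled circles for AZA and open squares for DMSO; from NXPH1 to LTBP2 the purple mark lies right of the green mark of the same shape, and from FRZB to BFSP1 left of it.

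A further set of called genes, chosen after their values were seen for size and abundance, was less than 2-fold apart in at least 1 treatment. On the G266 side, SLITRK4, a transmembrane protein of neurons, had 152 and 273 normalized counts in G266 with AZA and DMSO, against 96.0 and 93.8 in ZFTMA. ODZ1, the cell adhesion protein teneurin 1, had 533 and 284 in G266, against 324 and 152 in ZFTMA. ADAM22, a membrane protein without protease activity that binds LGI1, had 858 and 505 in G266, against 517 and 277 in ZFTMA. TMEM26 had 126 and 28.2 in G266, against 43.2 and 23.3 in ZFTMA, and its log2 ratio was 1.54 with AZA and 0.27 with DMSO. FSCN1, described above, was called as well, with a log2 fold change of 1.16 (SE 0.18, adjusted p = 3.31e-05 by edgeR).

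On the ZFTMA side, RARRES1, a gene induced by retinoic acid, had 229 and 31.7 normalized counts in G266 with AZA and DMSO, against 412 and 84.0 in ZFTMA. CPAMD8, of the alpha-2-macroglobulin family, had 462 and 465 in G266, against 695 and 1035 in ZFTMA. SLC25A21, a mitochondrial carrier of oxodicarboxylates, had 188 and 454 in G266, against 281 and 956 in ZFTMA. The ratio of CPAMD8 and SLC25A21 was wider with DMSO than with AZA. C20orf194 had 1981 and 2875 in G266, against 3262 and 4870 in ZFTMA, with nearly the same ratio in both treatments (log2 fold change of -0.74, SE 0.08, adjusted p = 2.47e-08 by edgeR).

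Genes of the extracellular matrix were called in both directions. Of 30 collagens and matrix proteins tested, 7 were higher in G266 and 7 higher in ZFTMA, 46.7% of the list, and its median log2 fold change was -0.03, against 0.01 for all genes tested. Among all genes with a symbol, 185 of 1738 were called (10.6%). Many members of this list are abundant, and calls took 13.7% of all tested genes with a mean of 5000 or more normalized counts. The part of abundance in the share called was not tested. The gene lists here and below were chosen with earlier results of these data known, so the shares called only describe them. COL4A1, a chain of basement membrane collagen, had 528 and 173 normalized counts in G266 with AZA and DMSO, against 308 and 59.3 in ZFTMA (log2 fold change of 1.06, SE 0.16, adjusted p = 2.89e-05 by edgeR). LTBP2, a microfibril protein related to the latent TGF-beta binding proteins, had 211 and 239 in G266, against 179 and 84.8 in ZFTMA. SULF1, an enzyme that removes sulfate from heparan sulfate, had 47.3 and 5.88 in G266, against 16.2 and 3.75 in ZFTMA. Its DMSO values were 5 raw counts in either line, so its call rested on the AZA libraries. COL4A1 and SULF1 were higher with AZA in both lines, and the difference between the lines was wider with DMSO for COL4A1 and LTBP2.

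COL21A1, a fibril-associated collagen, was higher in ZFTMA, with 39.9 and 128 normalized counts in G266 with AZA and DMSO, against 90.6 and 257 in ZFTMA (log2 fold change of -1.06, SE 0.19, adjusted p = 0.00028 by edgeR). Among the most abundant members, COL1A2, a chain of type I collagen, had 43311 and 101201 in G266, against 60486 and 113985 in ZFTMA. DCN, which encodes the small proteoglycan decorin, had 10827 and 7000 in G266, against 14826 and 9591 in ZFTMA. The large proteoglycan VCAN (versican), whose gene is Z-linked, ran the other way, with 30816 and 40262 in G266, against 22484 and 23937 in ZFTMA. COL1A2, DCN and VCAN were called, with log2 fold changes of -0.33, -0.45 and 0.60. FN1 (fibronectin) was not called, with 57736 and 46668 in G266, against 68425 and 38318 in ZFTMA. In FN1 the line that was higher differed between the treatments. These 4 genes were added to the account after their values were seen.

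Of 15 matrix proteases and their regulators, 1 was higher in G266 and 1 higher in ZFTMA (13.3%), near the 10.6% of genes with a symbol, and the list's median was -0.05. ADAMTS2, which cleaves the N-terminal propeptide of procollagen, had 427 and 78.7 normalized counts in G266 with AZA and DMSO, against 265 and 45.8 in ZFTMA. The collagenase MMP13 had 1041 and 1321 in G266, against 1503 and 2096 in ZFTMA. Both kept their ratio across treatments, at 1.61-fold and 1.71-fold for ADAMTS2 and 1.44-fold and 1.59-fold in the other direction for MMP13.

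Of 15 genes of the Wnt pathway, which holds secreted ligands and their inhibitors, 1 was higher in G266 and 2 higher in ZFTMA (20%, against 10.6% of genes with a symbol), with a median log2 fold change of 0.09. WNT9A, a Wnt ligand, had 41.0 and 42.3 normalized counts in G266 with AZA and DMSO, against 22.7 and 5.25 in ZFTMA. FRZB, a secreted antagonist that binds Wnt ligands, had 641 and 397 in G266, against 1227 and 608 in ZFTMA (log2 fold change of -0.79, SE 0.10, adjusted p = 3.43e-06 by edgeR). KREMEN1, a receptor of the Dickkopf inhibitors, had 434 and 391 in G266, against 475 and 601 in ZFTMA. WNT9A was thus higher in G266 and FRZB higher in ZFTMA, within both treatments. The WNT9A value in ZFTMA with DMSO rested on 7 raw counts. DESeq2 called FRZB but not KREMEN1, and gave no adjusted p for WNT9A. Other members of the list, among them WNT1, WNT2, WNT6, SFRP1, SFRP2, DKK2 and NOTUM, were not called.

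Of 11 genes of the BMP and TGF-beta pathway, 1 was higher in G266 and 3 higher in ZFTMA (36.4%, against 10.6% of genes with a symbol), with a median of -0.09. The ligand BMP5 had 214 and 38.8 normalized counts in G266 with AZA and DMSO, against 155 and 13.5 in ZFTMA. The ligand GDF5, known from joint formation, had 16.8 and 8.23 in G266, against 47.5 and 14.3 in ZFTMA. The BMP antagonist CHRDL1 had 437 and 68.2 in G266, against 625 and 90.0 in ZFTMA. BMPR2, a type II receptor, was called at a log2 fold change of -0.26, and its log2 ratio was -0.41 with AZA and -0.11 with DMSO. The DESeq2 Wald test called none (0) of BMP5, CHRDL1 and BMPR2, with adjusted p from 0.543 to 0.712. It gave no adjusted p for GDF5, which had 7 to 44 raw counts per library. Of the other pathways, DLL1 was the single call among 9 Hedgehog and Notch genes (11.1%) and FGFR2 the single call among 8 FGF genes (12.5%). FGFR2, a receptor of fibroblast growth factors, had 2727 and 4962 in G266, against 3654 and 5270 in ZFTMA. None (0) of 7 EGF family ligands was called.

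**Figure D4:**
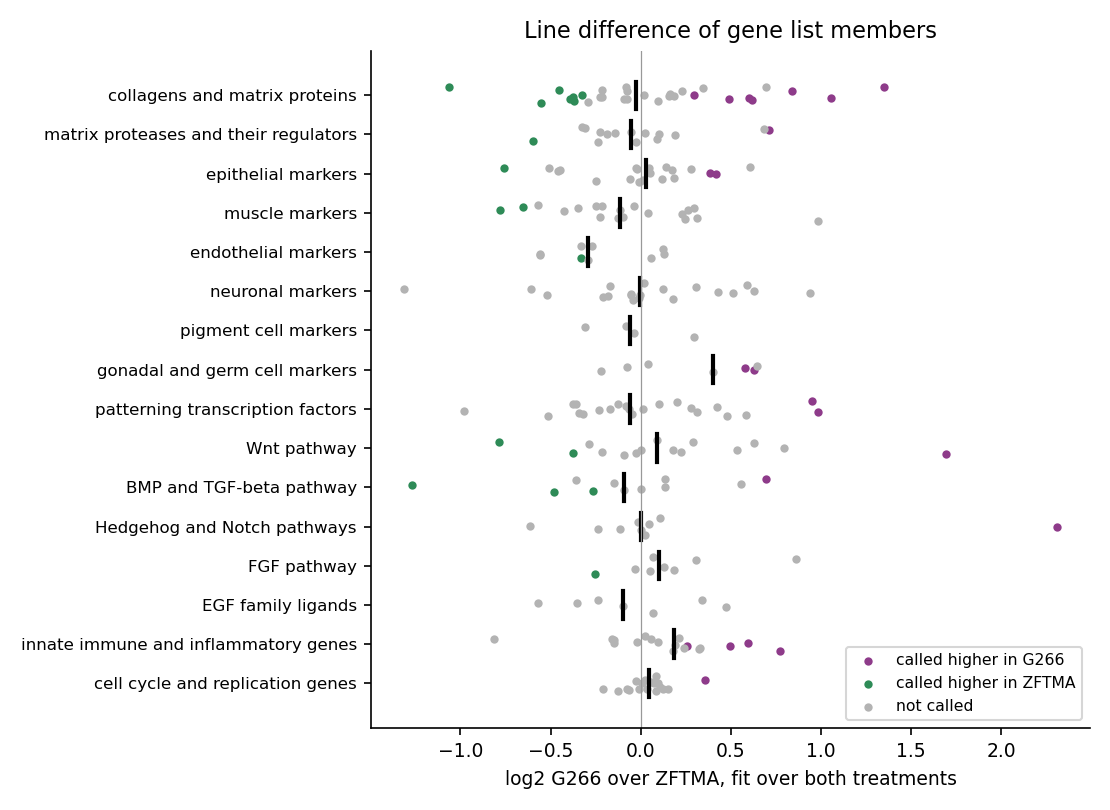
Log2 fold change of G266 over ZFTMA in the fit over both treatments (horizontal axis) for every tested member of 16 gene lists (rows). Purple members are called higher in G266, green members called higher in ZFTMA and grey members not called, and a black bar marks the median of the list; the collagens and matrix proteins hold 7 purple and 7 green members on both sides of 0.

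Of 18 innate immune and inflammatory genes, 4 were higher in G266 and 0 higher in ZFTMA (22.2%, against 8.08% of all genes tested and 10.6% of those with a symbol). The other 14 were not called, and the median log2 fold change was 0.19, against 0.01 for all genes tested. The largest absolute log2 fold change of the list, -0.82, was that of IL15, which was not called and ran toward ZFTMA. IL15 had 67.3 in G266 and 119 in ZFTMA with AZA, and 0 in both with DMSO. TNIP1, TNIP3, IFNGR2 and OSMR were also below 0, and the rest of the 14 above it. PARP9 and DTX3L, whose products form a complex in interferon-treated mammalian cells, had a similar pattern. The annotated interval of PARP9 (chr7:3613482-3621755) lies within that of DTX3L (chr7:3463997-3629792). Whether the 2 genes share reads was not tested, so they may not be separate calls. PARP9 had 923 and 351 normalized counts in G266 with AZA and DMSO, against 532 and 275 in ZFTMA, and DTX3L had 2156 and 729 in G266, against 1295 and 629 in ZFTMA. DHX58, a helicase of the RIG-I family, had 145 and 43.5 in G266, against 79.8 and 28.5 in ZFTMA. IRF1, an interferon regulatory transcription factor, had 2805 and 1389 in G266, against 2054 and 1337 in ZFTMA. In all 4 genes the log2 ratio was larger with AZA, at 0.79, 0.74, 0.86 and 0.45, than with DMSO, at 0.35, 0.21, 0.60 and 0.06, in the order PARP9, DTX3L, DHX58 and IRF1. This change has no test. DESeq2 called none (0) of PARP9, DTX3L and IRF1, with adjusted p from 0.139 to 0.723, and gave no adjusted p for DHX58. STAT3, a transcription factor of cytokine signaling, was not called and had 5521 and 5615 in G266, against 5623 and 5332 in ZFTMA.

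Of the markers of differentiated cells, those of epithelium, muscle and endothelium were called about as often as all genes with a symbol (10.6%). Of 20 neuronal markers, 0 were called, and their summed normalized counts were 3074 and 1786 in G266 with AZA and DMSO, against 3293 and 1796 in ZFTMA. The 20 epithelial markers held 2 genes higher in G266 and 1 higher in ZFTMA (15.0%). PPL (periplakin, of the cornified envelope and desmosomes) had 1505 and 311 in G266, against 2707 and 482 in ZFTMA, with a log2 fold change of -0.76 (SE 0.09, adjusted p = 6.09e-07 by edgeR). The membrane glycoprotein CDCP1 had 5597 and 2802 in G266, against 4307 and 2035 in ZFTMA. The adhesion molecule EPCAM had 1105 and 37.6 in G266, against 835 and 30.8 in ZFTMA. In bulk RNA, fewer cells of a type and less RNA per cell cannot be told apart.

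Of 19 muscle markers, 0 were higher in G266 and 2 higher in ZFTMA (10.5%). SGCD, the delta subunit of the sarcoglycan complex, had 785 and 84.6 normalized counts in G266 with AZA and DMSO, against 1110 and 222 in ZFTMA. JPH2, which ties the sarcoplasmic reticulum to the plasma membrane, had 259 in G266 and 420 in ZFTMA with AZA, and 3 and 2 raw counts with DMSO. Its call thus rested on the AZA libraries. Among 9 endothelial markers the matrix protein MMRN2 was called (11.1%), at a log2 fold change of -0.33. The median log2 fold change of these 9 was -0.29, and their median log2 ratio was -0.25 with AZA and -0.21 with DMSO. None (0) of 4 pigment cell markers was called.

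Of 7 gonadal and germ cell markers tested, 2 were higher in G266 and 0 in ZFTMA. That is 28.6%, against 8.08% of all genes tested and 10.6% of those with a symbol. The median log2 fold change of this list was 0.40, and its median log2 ratio was 0.38 with AZA but -0.21 with DMSO. The DESeq2 Wald test called neither of the 2, DDX4 and WT1, with adjusted p of 0.712 and 0.671. The Z-linked DDX4, the germ cell RNA helicase also called Vasa, had 1160 normalized counts in G266 and 756 in ZFTMA with AZA, and 7.05 and 8.25 with DMSO. WT1, a transcription factor of the developing gonad and kidney, had 372 and 22.3 in G266 with AZA and DMSO, against 246 and 12.8 in ZFTMA. PIWIL1, a germ cell protein that binds small RNAs, was not called and had 353 and 43.5 in G266, against 291 and 63.8 in ZFTMA. The transcripts of DDX4, WT1 and PIWIL1 were more abundant with AZA than with DMSO in either line, and the DMSO values of DDX4 rested on few counts. Symbols came from tables that include genes called for AZA in the same libraries, so nothing is read from this direction. Of 22 patterning transcription factors, 2 were higher in G266 (9.09%) and 0 in ZFTMA. FOXF1, a factor of the embryonic mesenchyme, had 170 and 57.6 in G266, against 87.4 and 30.0 in ZFTMA. TBX22, a T-box factor, had 109 in G266 and 55.0 in ZFTMA with AZA, and 0 counts in both DMSO libraries.

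Of 18 cell cycle and replication genes tested, 1 was higher in G266 (5.56%) and 0 in ZFTMA, near the 8.08% of all genes tested, and the median log2 fold change was 0.05. MCM2, a subunit of the replicative helicase, had 2318 and 3501 normalized counts in G266 with AZA and DMSO, against 1650 and 2983 in ZFTMA. CCND1 (cyclin D1), not called, had 2700 and 1453 in G266, against 2649 and 1463 in ZFTMA.

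The median line difference varied between chromosomes. Of 28 autosomes with at least 20 genes of known position and an average of 50 or more normalized counts, chromosome 26 had the highest median log2 G266 over ZFTMA in both treatments, 0.26 with AZA and 0.32 with DMSO (30 genes). That is a fold of 1.20 and 1.25. The next highest medians were 0.11 with AZA, on chromosome 12, and 0.14 with DMSO, on chromosome 24. On chromosome 26, 22 of the 30 genes lay above 0 with AZA and 25 with DMSO, and 9 of 46 genes tested were called higher in G266 (19.6%) and 0 higher in ZFTMA. Over the autosomes as a whole, 4.92% were called higher in G266 and 5.70% higher in ZFTMA. The lowest medians were those of chromosome 21, -0.19 with AZA and -0.11 with DMSO (32 genes). Chromosome medians with AZA and DMSO had a Pearson correlation of 0.90 over the 28 autosomes, which share the 4 libraries. With an average of 500 or more normalized counts required, the median of chromosome 26 relative to all autosomes was 0.36 with AZA but 0.13 with DMSO.

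The genes of chromosome 26 with a symbol that were called were WDR77, BRPF3, SRPK1, FKBP5, MICAL1 and ITPR3. All 6 were higher in G266 within each treatment, a repeat that the test itself asks for. ITPR3, an intracellular calcium channel, had 1011 and 597 normalized counts in G266 with AZA and DMSO, against 740 and 436 in ZFTMA (log2 fold change of 0.45, SE 0.10, adjusted p = 0.00371 by edgeR). WDR77, a partner of the arginine methyltransferase PRMT5, had 1274 and 1191 in G266, against 890 and 930 in ZFTMA. MICAL1, an enzyme that oxidizes actin, had the largest ratio of the 6, with 198 and 36.4 in G266, against 120 and 16.5 in ZFTMA. The log2 fold changes of BRPF3, a subunit of a histone acetyltransferase complex, SRPK1, a kinase of splicing factors, and FKBP5, a co-chaperone of steroid receptors, were 0.44, 0.24 and 0.31. DESeq2 called none (0) of these 6 genes, and its adjusted p ranged from 0.137 to 0.713.

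MethylCap-seq, which sequences DNA fragments captured by a methyl-binding domain, gave a second readout of the same chromosomes in other libraries of the same lines and treatments. The share of peak counts on chromosome 26 had a log2 ratio of G266 over ZFTMA of 0.06 with AZA and -0.32 with DMSO. The other 12 autosomes numbered 14 to 28 had -0.31 to -0.08 with AZA and -0.58 to -0.29 with DMSO. Chromosome 26 was thus above all 12 with AZA and within their range with DMSO, where 3 of them were higher. The share on chromosome 12 had a log2 ratio of 0.13 with AZA, the highest of the 28 autosomes, and -0.07 with DMSO, where 9 autosomes were higher. Chromosomes 10, 11, 13 and 14 had -0.22 to -0.04 with AZA and -0.35 to -0.15 with DMSO. On chromosome Z the log2 ratio of the share was 0.10 with AZA and 0.32 with DMSO, against 0.05 to 0.08 and 0.20 to 0.23 on the 5 large chromosomes 1, 1A, 2, 3 and 4. Captured fragments count both methylation and DNA copies, which cannot be told apart here.

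**Figure D5:**
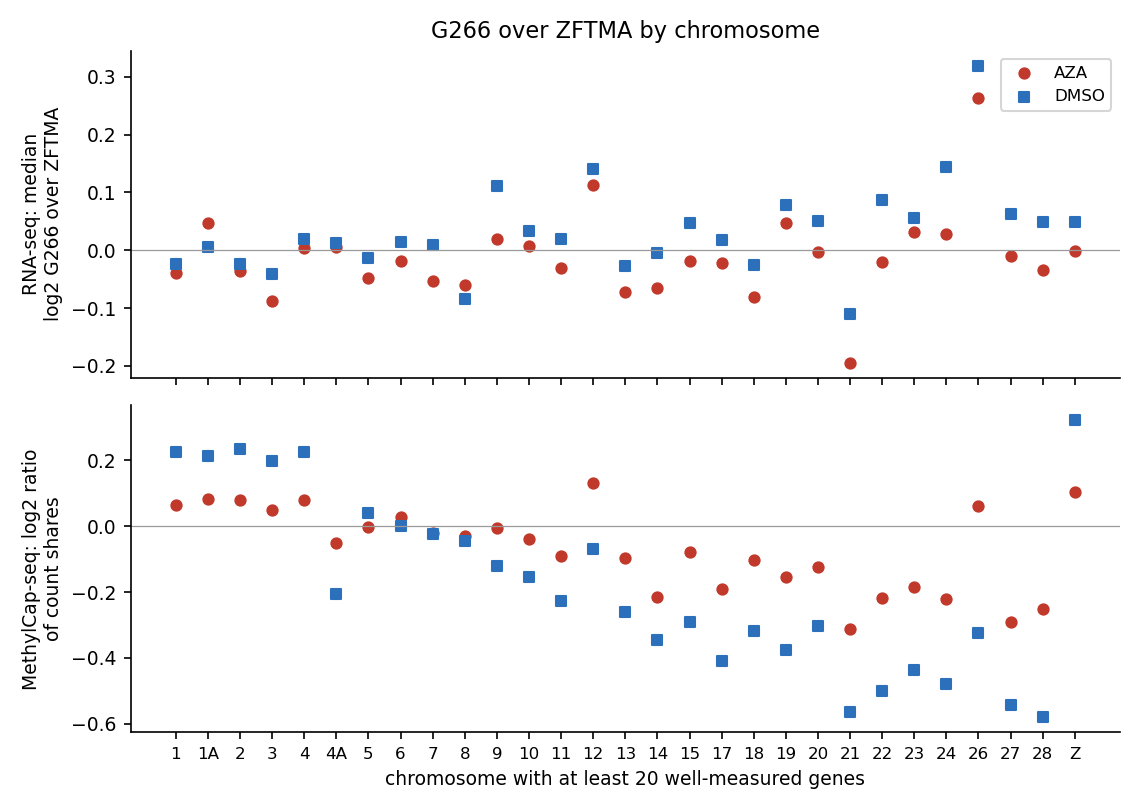
Upper panel, median log2 ratio of normalized RNA-seq counts of G266 over ZFTMA per chromosome; lower panel, log2 ratio of the share of MethylCap-seq peak counts on the chromosome. Circles are AZA and squares DMSO, for chromosomes with at least 20 well-measured genes; chromosome 26 has the highest RNA-seq medians (0.26 and 0.32) and Z lies near 0 in the upper panel.

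Methylation around the ends of the genes was similar for genes called higher in G266 and genes called higher in ZFTMA, a comparison that has no test. Fragments were counted in windows reaching 2000 bp outside and 500 bp inside both ends of each gene, and windows with at least 10 fragments in the pair were kept. With AZA the median log2 ratio of fragment shares was -0.09 for 113 genes higher in G266 and -0.15 for 131 genes higher in ZFTMA, against -0.22 for all 2419 genes with a position. With DMSO it was -0.26 for 122 genes higher in G266 and -0.23 for 141 genes higher in ZFTMA, against -0.39 for all 2543 genes. Across genes the Spearman correlation between the ratio of methylation and that of expression was 0.05 with AZA and -0.08 with DMSO. The windows of GUCY1A3 held 3.53 and 2.99 fragments per 1000000 peak counts in G266 with AZA and DMSO, against 3.31 and 0.23 in ZFTMA. The last value rested on 2 fragments, and untreated ZFTMA cells had 0.49, on 5 fragments. In raw fragments, not scaled to depth, its windows held 9 in either line with AZA. With DMSO they held 31 in G266 and 2 in ZFTMA. A link between these fragments and the expression of GUCY1A3 was not tested.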

How the data were processed

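For RNA-seq, the authors aligned read pairs to taeGut3.2.4 with STAR 2.3.0, left duplicates in, and deposited raw counts per gene of Ensembl release 72. Whether counting used strand is not given in the sources used here, so overlapping and antisense genes may share reads. For MethylCap-seq, the authors mapped with Bowtie2 2.1.0, removed duplicates and deposited fragment counts on peaks called once on pooled DMSO coverage. Gene counts, scaled to library depths estimated as in PoissonSeq, were fitted with edgeR 4.0.16 (R 4.3.3) by the quasi-likelihood functions glmQLFit and glmQLFTest, with treatment and line in the model and an FDR of 0.1. Genes entered with 10 or more counts in 2 or more libraries. The SE of a gene was derived from F, as its absolute log2 fold change over the root of F. In simulated counts, the fit recovered 89% of 200 genes changed 2-fold, and 11.9% of its calls were false. For genes changed 4-fold these were 100% and 10.3%. The simulated counts were noisier than these data, with smaller treatment effects, so they do not measure the error rate here. DESeq2 1.42.0 was an alternative.

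The libraries of a treatment were paired by that treatment, as the design gives it. Symbols, known for 2187 of 18618 identifiers, and positions came from the study's supplementary gene tables, which list genes related to AZA or methylation, so the named genes are no random sample. Some of these tables hold genes that the study called for AZA in the same RNA-seq libraries. A change of a named gene with AZA is thus partly built in. The roles given are those known in mammals. The members and gene lists were chosen with earlier results of these data known. Named genes were to be the 12 with the highest and the 12 with the lowest log2 fold change among called genes that had a symbol, 50 or more normalized counts in both libraries of the higher line and a 2-fold difference in both treatments, a rule that 1 gene met. Up to 4 called members of each of 17 lists were added, with the 5 genes whose difference shrank most and the 5 in which it grew most with AZA. Other names were chosen after their values were seen and are given as such, as were the called genes of chromosome 26 and the separating genes with a symbol. Of these, 1 gene and 1 list of cell markers are not reported here. The RRBS data come from 1 line and were not used here.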

Additional observations from a re-analysis of the deposited data

How the results depend on the processing

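Under TMM, DESeq2 size factors, total gene counts and no filter on low counts, the counts of genes higher in G266, higher in ZFTMA and separating the lines in both treatments stayed within 1.5 times the values given. TMM and DESeq2 size factors raised the genes higher in ZFTMA to 678 and 679. The DESeq2 Wald test called 81 genes higher in G266, 126 higher in ZFTMA and 14 separating genes, and a minimum of 50 counts left 19 separating genes. With no replicate block (the treatment left out of the model) these counts were 0, 0 and 0. Leaving out each library in turn, with the line alone in the model, they ranged from 0 to 0, with 15 to 67 genes at an unadjusted p under 0.05. In these fits the treatment enters the spread. Of 60 named genes called, DESeq2 called 19, did not call 26 and gave no adjusted p for 15. DESeq2 gave no adjusted p for NXPH1, UNC5C, DLL1, PRDM6, LYPD1, BFSP1, WNT9A, GDF5, SULF1, DHX58, TBX22, FOXF1, TMEM26 and BMF, among others. It did not call HMHA1, ADAMTS2, IRF1, WDR77, BRPF3, SRPK1, FKBP5, MICAL1, ITPR3, DDX4, DTX3L, PARP9, CHRDL1, WT1, IGFBP2, JPH2, EPCAM, MMRN2, KREMEN1, MCM2, SERPIND1, PPAP2B, BMPR2, FGFR2, LTBP2 and BMP5.

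With a library left out, the line is mixed with the treatment, and the sign of 42 of 68 named genes turned in at least 1 such fit. The lowest and highest log2 values were ADAMTS2 -0.98 to 2.46, BFSP1 -2.56 to 0.16, BMF -1.84 to 0.085, BMP5 -1.11 to 3.22, BMPR2 -0.61 to 0.13, CCND1 -0.50 to 0.51, CDCP1 -0.18 to 1.05, CHRDL1 -2.38 to 1.49, COL1A2 -1.01 to 0.26, COL4A1 -0.081 to 2.56, DDX4 -5.73 to 6.12, DHX58 -0.31 to 1.72, DTX3L -0.40 to 1.20 and ENTPD8 -1.64 to 0.29. They were EPAS1 -3.34 to 1.42, EPCAM -3.52 to 4.21, FGFR2 -0.71 to 0.15, FKBP5 -0.78 to 1.40, FN1 -0.39 to 0.45, FOXF1 -0.021 to 1.92, HMHA1 -0.59 to 2.14, IGFBP2 -3.46 to 0.95, IRF1 -0.29 to 0.73, JPH2 -1.68 to 0.30, KLHL26 -1.42 to 0.34, LYPD1 -1.10 to 3.41, MCM2 -0.036 to 0.82 and MICAL1 -0.89 to 2.82. For the rest they were MMRN2 -1.66 to 0.91, PARP9 -0.20 to 1.21, PPAP2B -0.17 to 1.29, PPL -2.35 to 0.92, RARRES1 -2.96 to 0.64, SERPIND1 -0.93 to 0.29, SGCD -2.97 to 0.97, SLC25A21 -1.72 to 0.19, SRPK1 -0.016 to 0.51, STAT3 -0.014 to 0.063, TBX22 -0.0057 to 2.01, TMEM26 -0.23 to 1.93, WT1 -2.52 to 3.94 and ZNF385D -0.49 to 2.00. CCND1 was -0.00034 under TMM and -0.00072 under DESeq2 size factors, and FN1 was -0.032 with no replicate block. None of these 3 values was called.

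The SD of the line difference with AZA over that with DMSO was 0.81. It was 0.89 with 5 added to each count, 0.72 at a mean of at least 10 and 0.97 at a mean of at least 500 normalized counts. In alternatives chosen after seeing the data it was 0.91 with at least 50 and 1.00 with at least 500 normalized counts within each treatment, and 0.92 with the counting variance subtracted. With that variance subtracted it was 0.89 with at least 50 normalized counts within each treatment. It was 1.15 at a mean of at least 10 and 1.11 with 5 added, which turned the order. The subtraction is not suited to these last settings, as said above, and nothing is read from the turn. The Z chromosome relative to autosomes was 0.056 with AZA and 0.051 with DMSO at a mean of at least 10, and -0.0024 and 0.022 at a mean of at least 500. With DMSO it was 0.026 with 5 added and 0.023 with counts thinned to the smallest library. For genes higher in G266 the window methylation with DMSO, relative to all genes, was 0.13 with windows of 2000 bp and -0.010 with windows of 500 bp. Genes with few counts with DMSO limit what can be said of the line difference there.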
